A study of Rattus norvegicus with 24 samples.

Results

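The fatty acid binding protein family was followed through messenger RNA libraries of 4 rat tissues. The family is represented by the 7 genes Fabp1 to Fabp7, taken as the rows of the count table whose gene name equals one of these symbols; all 7 were present, among 32883 genes. The rats were Sprague-Dawley animals aged 7 months, either SAM-exposed (SAM, the treatment name in the labels, in a series whose title speaks of PCB, polychlorinated biphenyl, exposure) or sham-exposed (Sham). Each of liver, brain, thymus and spleen had 3 SAM and 3 Sham libraries, 24 in all. The SAM animals were numbers 1, 2 and 3 in liver and brain and 1, 3 and 5 in thymus and spleen; the Sham animals were 13, 14 and 15 in liver, 13, 15 and 16 in brain, and 14, 15 and 17 in thymus and spleen. The labels give no dose, duration, sex or batch and do not state whether a number shared by several tissues stands for 1 rat; nothing says how the samples of a group were kept apart, so p-values measure the spread between these samples, which may in part be technical. The members were selected on measured values: Fabp5 stood among the liver genes of lowest p in earlier results, so the members' own differences in liver are described here without a test.

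Fatty acid binding proteins are small cytosolic proteins that hold a long-chain fatty acid or a related hydrophobic ligand inside a barrel of beta strands and carry it between membranes, enzymes, lipid droplets and the nucleus. The genes are close relatives that differ in where they are used, and the proteins are named after the organ they were found in: liver (Fabp1), intestine (Fabp2), heart (Fabp3), adipocyte (Fabp4), epidermis (Fabp5), ileum (Fabp6) and brain (Fabp7). Several are known targets of peroxisome proliferator-activated receptors, nuclear receptors that fatty acids themselves activate.

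RefSeq places the genes on 5 chromosomes of the rat build GRCr8: Fabp1 on chromosome 4, Fabp2, Fabp4 and Fabp5 on chromosome 2, Fabp3 on chromosome 5, Fabp6 on chromosome 10 and Fabp7 on chromosome 20. Fabp4 lies directly between the related genes Fabp12 and Fabp9, and the neighbourhood of Fabp5 holds Pmp2, a further relative. RefSeq also lists pseudogenes of Fabp5 (Fabp5-ps2 and Fabp5-ps3), and the sources used here do not say how reads shared with such copies were assigned, which leaves Fabp5 values uncertain to that extent.

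A RefSeq promoter was at hand for 5 of the 7 members (GRCr8; the 250 bases before the annotated start are used), and not for Fabp4 and Fabp5. The promoters of Fabp1, Fabp3 and Fabp7 are shown, as the members that stood out in liver (Fabp1), in brain (Fabp3) and in both (Fabp7). Capitals mark matches to 3 motifs, searched on both strands and not overlapping each other: the TATA box, spelled TATAAA; the CCAAT box, which reads ATTGG when it lies on the opposite strand; and the nuclear receptor core, spelled AGGTCA, which then reads TGACCT.
Fabp1, chr4:104749090-104749339 (+): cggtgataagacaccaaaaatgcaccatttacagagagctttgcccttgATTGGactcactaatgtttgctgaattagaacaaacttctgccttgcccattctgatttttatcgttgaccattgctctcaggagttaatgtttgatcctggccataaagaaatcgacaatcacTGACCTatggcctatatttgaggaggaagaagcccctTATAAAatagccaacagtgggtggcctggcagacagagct
Fabp3, chr5:147935875-147936124 (+): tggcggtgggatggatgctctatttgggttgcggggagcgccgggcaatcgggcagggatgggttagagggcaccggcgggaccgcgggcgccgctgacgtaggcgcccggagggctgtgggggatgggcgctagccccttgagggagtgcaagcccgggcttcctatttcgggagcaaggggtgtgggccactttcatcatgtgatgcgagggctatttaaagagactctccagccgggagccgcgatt
Fabp7, chr20:37669356-37669605 (+): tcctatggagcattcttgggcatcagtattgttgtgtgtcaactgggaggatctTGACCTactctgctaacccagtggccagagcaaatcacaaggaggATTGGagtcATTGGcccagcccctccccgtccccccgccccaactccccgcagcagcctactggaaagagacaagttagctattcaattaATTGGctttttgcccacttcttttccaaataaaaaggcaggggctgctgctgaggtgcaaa

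The liver gene Fabp1 had a TATA box from position -40 to -35 (counted back from the start), a nuclear receptor core on the opposite strand from -77 to -72, and 1 CCAAT box on the opposite strand from -201 to -197. Fabp7 had a nuclear receptor core on the opposite strand from -196 to -191 and 3 CCAAT boxes on that strand, the nearest from -61 to -57. Fabp3 held none of these motifs in the exact spelling searched, although tatttaaa, close in spelling to the TATA box, lies near its start. Its GC content of 65.6% lay above the upper quartile of promoters in the table (60%), against 43.2% in Fabp1 and 51.6% in Fabp7. Of the promoters not shown, Fabp2 had a CCAAT box on the opposite strand from -76 to -72, and Fabp6 had a TATA box on the opposite strand from -41 to -36. Among 33469 promoters in the table, 12.9% held the TATA box, 34% the CCAAT box and 14.1% the nuclear receptor core on either strand. The exact DR1 element, a tandem of the nuclear receptor core with 1 base between the copies, was in 0.0508% of promoters and in none of the 5 members. Copies with mismatched bases were not searched for, for any motif. In the Fabp1 sequence shown, TGACCT is followed after 1 base by tggcct, which departs from TGACCT at 1 base. Fabp1 thus holds a DR1 of looser spelling on the opposite strand, and the other members may hold such copies too. The RBPJ core, spelled TGGGAA, was in 22.1% of promoters, and the aryl hydrocarbon receptor core, spelled GCGTG, was in 25.9%; neither was in any of the 5.

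Library totals were 12.9 to 20.1 M (mega) counts. Levels are CPM (counts-per-million, scaled within each tissue by TMM, the trimmed mean of M-values), and 1 count equalled 0.0485 to 0.0914 CPM. Marker genes went with the tissue labels: summed hepatocyte markers were 124000 to 158000 CPM in liver and at most 70 elsewhere, neuron markers 5550 to 7330 in brain and at most 1.83 elsewhere, T cell markers 8310 to 10000 in thymus, and B cell markers 2030 to 2580 in spleen. Some libraries stood apart. In SAM 1 of liver, mitochondrial genes took 17.8% of counts; in the remaining liver libraries they took 5.71 to 8.07%. SAM 1 and SAM 2 of brain had scores of -60.3 and -48.4 on principal component 1 (76.7% of variance), with SAM 3 at 23.6 and the Sham libraries at 23.3 to 31.9. SAM 1 and Sham 15 of thymus had 5.64% and 8.18% mitochondrial counts, against 2.95 to 3.64% in the other 4. In these whole-tissue samples, fewer cells of a type and less RNA per cell cannot be told apart. With edgeR's quasi-likelihood test and Benjamini-Hochberg adjustment at 0.05, 0 genes were called between SAM and Sham in any tissue. Liver had 12130 genes tested, with 327 at an unadjusted p under 0.05 and 2 called by DESeq2. Brain had 15126 tested, 3108 under 0.05 and 508 called by DESeq2. Thymus had 15036, 922 and 102, and spleen 14530, 597 and 7, in the same order. The share of tested genes whose 3 SAM and 3 Sham libraries did not overlap, in either direction, was 10.8% for liver, 23.8% for brain, 11.9% for thymus and 9.22% for spleen.

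The tissues shared some members and differed in others. Liver was dominated by Fabp1 and also held Fabp5 and Fabp7, brain used Fabp3, Fabp5 and Fabp7, and thymus and spleen used Fabp4 and Fabp5. Fabp5 alone exceeded 10 CPM in all 24 libraries. The family took 0.302 ± 0.0694% of all counts in SAM liver and 0.284 ± 0.031% in Sham liver (SD, n = 3 each). Its share was 0.0188 ± 0.00941% in SAM brain and 0.0112 ± 0.00163% in Sham brain, 0.0196 ± 0.0156% in SAM thymus and 0.0258 ± 0.0309% in Sham thymus, and 0.0162 ± 0.00367% in SAM spleen and 0.0154 ± 0.00193% in Sham spleen.

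**Figure D1:**
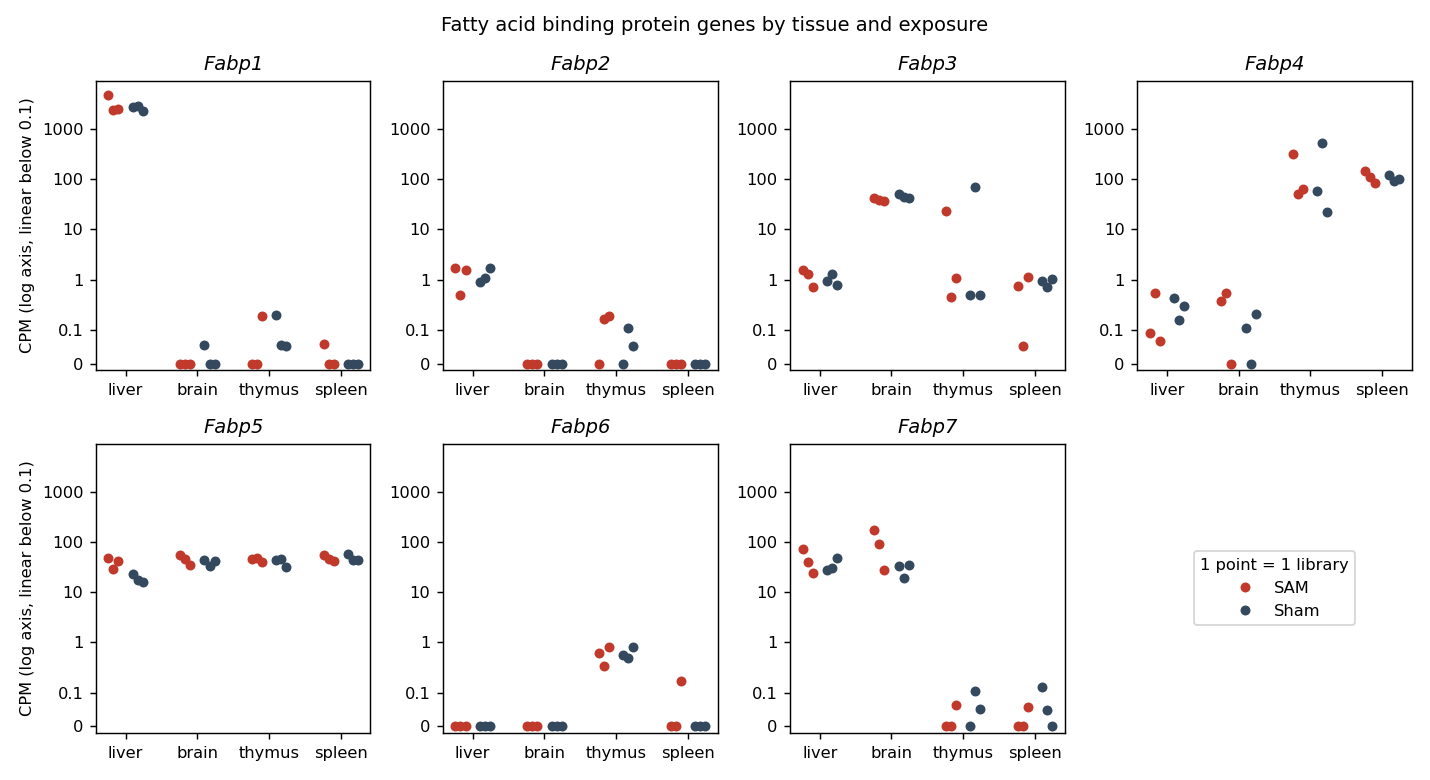
Level of each gene (CPM, log axis that is linear below 0.1) in every library, by tissue, SAM left of Sham, 1 point per library. Fabp1 reached 2310 to 4730 CPM in liver and at most 0.202 CPM elsewhere, while Fabp5 lay between 16.1 and 57.8 CPM in all 24 libraries.

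Fabp1, the abundant carrier of fatty acids in hepatocytes, was a liver transcript. Its liver levels were 4730, 2360 and 2540 CPM in SAM animals 1, 2 and 3, against 2760, 2850 and 2310 CPM in Sham animals 13, 14 and 15. SAM 1, the library with the high mitochondrial share, was the highest of the 6, and the other SAM libraries lay within or close to the Sham range. The log2 fold change was 0.28 ± 0.29 (SE), and it was -0.11 ± 0.14 without SAM 1. Outside liver no library had more than 4 Fabp1 counts, and with the 3 Sham spleen libraries all at 0 the level in Sham liver was at least 43300-fold higher, taking 3 counts over the group as the floor.

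Fabp2, the fatty acid carrier of small-intestinal enterocytes, was detected at a low level in liver, with 10 to 29 counts per library. It stood at 1.74, 0.504 and 1.53 CPM in SAM livers 1, 2 and 3, against 0.885, 1.09 and 1.75 CPM in Sham livers 13, 14 and 15. The groups overlapped and the log2 fold change was -0.028 ± 0.51 (SE). All 6 brain and all 6 spleen libraries had 0 counts, which puts Sham liver at least 22.3-fold above Sham brain and at least 20.4-fold above Sham spleen (floor of 3 counts over the group). The thymus libraries had 0 to 3 counts.

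Fabp5, the epidermal form, which many cell types use, carries the difference in liver for which the family was taken up. It stood at 47.0, 28.3 and 41.0 CPM in SAM livers 1, 2 and 3, against 22.7, 17.1 and 16.1 CPM in Sham livers 13, 14 and 15. Every SAM liver lay above every Sham liver, with means of 38.8 ± 9.55 CPM for SAM livers and 18.6 ± 3.58 CPM for Sham livers (SD, n = 3 each). The nearest libraries across the groups were SAM 2 and Sham 13. The log2 fold change was 1.06 ± 0.24 (SE) and lay between 0.88 and 1.24 under the alternatives tried. In liver 5.19% of the genes tested had every SAM library above every Sham library, and 0% passed the adjusted threshold in that direction.

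The difference in liver Fabp5 was 0.90 ± 0.20 (log2, SE) without SAM 1. Summed liver macrophage markers were 116, 584 and 272 CPM in SAM 1, 2 and 3, against 146, 368 and 402 CPM in Sham 13, 14 and 15, with no marker at 0; the order of the libraries differed from that of Fabp5. Cholangiocyte markers (5 genes) summed to 9.65 to 11.5 CPM in SAM and 9.1 to 9.79 CPM in Sham, and hepatocyte markers to 124000 to 158000 CPM in SAM and 128000 to 140000 CPM in Sham. Of 20 marker lists, 1 had sums in liver that did not overlap between the groups. This was the pancreatic acinar list (6 genes), at 836, 355 and 397 CPM in SAM 1, 2 and 3, against 335, 352 and 284 CPM in Sham 13, 14 and 15, with SAM 2 and Sham 14 close together. Nearly all of that sum was Cpa1, a carboxypeptidase, and none of the other 5 genes exceeded 0.454 CPM in any liver library. Markers of thymic epithelium and keratinocytes (7 genes) summed to 330, 183 and 198 CPM in SAM 1, 2 and 3, against 150, 196 and 167 CPM in Sham 13, 14 and 15, nearly all of it the keratin Krt8, which hepatocytes also express. The part of cell composition in the Fabp5 difference was not tested.

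In the other tissues the SAM and Sham levels of Fabp5 overlapped. Brain had 56.0, 45 and 34.3 CPM in SAM 1, 2 and 3, against 43.2, 33.2 and 41.7 CPM in Sham 13, 15 and 16, a log2 fold change of 0.20 ± 0.19 (SE; edgeR adjusted p = 0.543) that was -0.20 ± 0.17 with SAM 1 and SAM 2 both left out. Thymus had 46.7, 47.8 and 40.6 CPM in SAM 1, 3 and 5, against 43.2, 46.5 and 31.7 CPM in Sham 14, 15 and 17, a log2 fold change of 0.15 ± 0.15 (edgeR adjusted p = 0.942). Spleen had 55.9, 46.7 and 41.7 CPM in SAM 1, 3 and 5, against 57.8, 42.9 and 44.6 CPM in Sham 14, 15 and 17, a log2 fold change of -0.0095 ± 0.14 (edgeR adjusted p = 0.995). Each estimate was close to its SE or below it, and none passed the threshold. In thymus, summed thymic epithelial and keratinocyte markers (7 genes) were 701 to 868 CPM in SAM and 1210 to 1340 CPM in Sham, without overlap. It was 1 of 3 marker lists lower in SAM without overlap there, with those of cholangiocytes and olfactory ensheathing glia, while 17 overlapped. Of single thymus genes tested, 11.9% did not overlap. The name of a list does not show that its cells are present in thymus. The part of cell composition in the Fabp5 values was not tested.

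**Figure D2:**
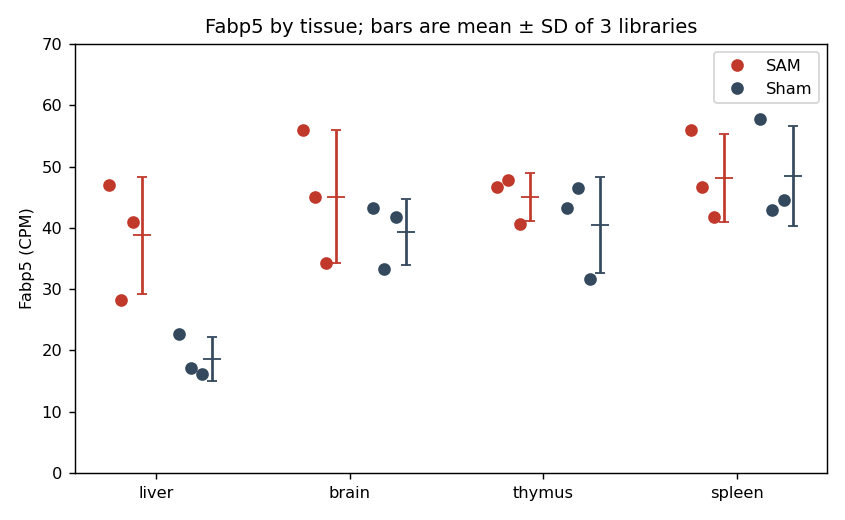
Fabp5 level (CPM) in each of 4 tissues, SAM left of Sham, 1 point per library, with mean ± SD of 3 libraries. The 3 SAM livers (28.3 to 47.0 CPM) lie above the 3 Sham livers (16.1 to 22.7 CPM), and the groups overlap in brain, thymus and spleen.

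The place of liver in the order of Fabp5 levels depended on the scaling. Under the within-tissue CPM, Sham liver (18.6 ± 3.58 CPM) was below Sham brain (39.4 ± 5.40), Sham thymus (40.5 ± 7.76) and Sham spleen (48.5 ± 8.15; SD, n = 3 each). In an edgeR fit of the 12 Sham libraries scaled by library totals, liver was lower than brain by a log2 difference of -0.98 (adjusted p = 0.000112). Scaled by TMM across tissues, the same difference was 0.46 ± 0.17 (SE; adjusted p = 0.0224), with the sign turned. Of all genes tested under TMM, 41.3% were called higher and 40.1% lower in liver. The median of all genes between liver and brain moved from 0.013 under TMM to -1.37 under library totals, so no order of Fabp5 between liver and the rest is given. Among brain, thymus and spleen the differences were at most 0.43 on the log2 scale under TMM; that of thymus minus spleen (-0.43 ± 0.16, adjusted p = 0.0348) was -0.26 (adjusted p = 0.187) under library totals.

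Fabp3, the heart and muscle form, which neurons also express, was the most even of the 3 members above 10 CPM in brain. It stood at 41.6, 39.1 and 37.5 CPM in SAM brains 1, 2 and 3, against 50.4, 45 and 42.4 CPM in Sham brains 13, 15 and 16. Every SAM brain lay below every Sham brain, although SAM 1 and Sham 16 were close; in brain 12.2% of genes tested had all SAM libraries below all Sham libraries. The log2 fold change was -0.22 ± 0.09 (SE) and did not pass the test (edgeR adjusted p = 0.249; 0% of genes were called lower). It was -0.29 ± 0.13 with SAM 1 and SAM 2 left out. Summed neuron markers (5 genes) were 5550 to 6500 CPM in SAM brains and 6750 to 7330 CPM in Sham brains, also without overlap, and their part in the Fabp3 difference was not tested. Of the marker lists in brain, this 1 lay wholly below in SAM, 5 lay wholly above and 14 overlapped.

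Sham brain exceeded Sham spleen in Fabp3 by 5.78 ± 1.48 on the log2 scale (SE; edgeR adjusted p = 0.00263), in a comparison where 41.4% of genes were called higher in brain. In liver Fabp3 was near 1 CPM, at 1.55, 1.31 and 0.732 CPM in SAM 1, 2 and 3 and 0.948, 1.30 and 0.786 CPM in Sham 13, 14 and 15 (log2 fold change 0.23 ± 0.40, SE). In spleen it was 0.742, 0.0533 and 1.16 CPM in SAM 1, 3 and 5 and 0.924, 0.728 and 1.04 CPM in Sham 14, 15 and 17. The SAM 3 spleen value rests on 1 count, and the log2 fold change of -0.46 ± 0.67 (SE; edgeR adjusted p = 0.971) was 0.10 ± 0.37 without it.

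In thymus Fabp3 split by library and not by group. It stood at 23.6, 0.449 and 1.08 CPM in SAM 1, 3 and 5, against 0.506, 71.3 and 0.508 CPM in Sham 14, 15 and 17. SAM 1 and Sham 15 were high and the other 4 libraries held 8 to 17 counts each. Highest and lowest library were 159-fold apart. The log2 fold change of -1.53 ± 1.81 (SE; edgeR adjusted p = 0.969) was 4.02 ± 1.75 without Sham 15 and -4.99 ± 2.42 without SAM 1, neither past the threshold.

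Fabp4, the adipocyte form, which macrophages and capillary endothelium also express, showed the same libraries at the top in thymus. It stood at 317, 51.7 and 65.0 CPM in SAM 1, 3 and 5, against 58.6, 517 and 22.0 CPM in Sham 14, 15 and 17. SAM 1 and Sham 15 were high, Sham 17 was lowest, and the groups overlapped (log2 fold change -0.46 ± 1.13, SE; edgeR adjusted p = 0.982). The estimate was 1.84 ± 0.85 without Sham 15, -1.77 ± 1.21 without SAM 1 and 0.53 ± 0.38 without both, none past the threshold.

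Fat genes were high in the same thymus libraries. Ucp1, the uncoupling protein that defines brown fat, was at 81.3, 0 and 0.0633 CPM in SAM 1, 3 and 5, against 0.101, 141 and 0.102 CPM in Sham 14, 15 and 17. Adipoq, the adipocyte hormone adiponectin, was at 116, 23.4 and 41.2 CPM in SAM 1, 3 and 5, against 29.6, 154 and 2.69 CPM in Sham 14, 15 and 17. All 7 adipocyte markers were found, and their sum was 117 to 402 CPM in SAM and 54.4 to 497 CPM in Sham. The 5 brown adipocyte markers summed to 1.83 to 164 CPM in SAM and 1.68 to 299 CPM in Sham; of these Elovl3 and Cox7a1 had at most 2 counts in any thymus library. Ranked from low to high, Fabp4 and Adipoq placed the 6 libraries in the same order, and Fabp3 and Ucp1 shared their 2 highest libraries. The part of fat in these values was not tested.

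**Figure D3:**
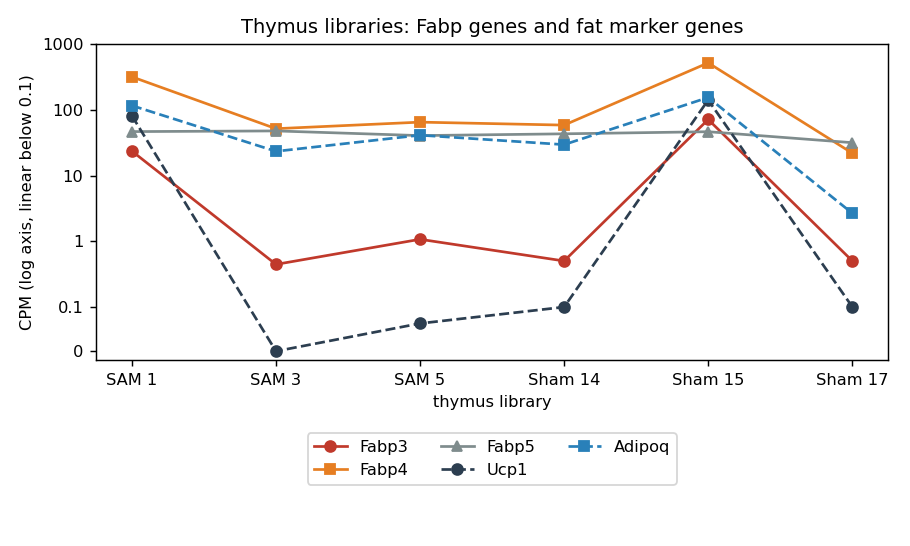
Fabp3, Fabp4, Fabp5 and the fat genes Ucp1 and Adipoq in each thymus library (CPM, log axis that is linear below 0.1), SAM libraries left of Sham libraries; lines join points of 1 gene. Fabp3, Fabp4, Ucp1 and Adipoq are highest in SAM 1 and Sham 15, while Fabp5 stays between 31.7 and 47.8 CPM.

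In spleen Fabp4 was more even, at 145, 113 and 83.1 CPM in SAM 1, 3 and 5, against 122, 90.3 and 101 CPM in Sham 14, 15 and 17. The groups overlapped, with a log2 fold change of 0.12 ± 0.20 (SE; edgeR adjusted p = 0.977), or -0.10 ± 0.16 without SAM 1. The 7 adipocyte markers summed to 165 to 263 CPM in SAM spleens and 118 to 246 CPM in Sham spleens, most of it Cfd, the complement factor adipsin (165 to 261 CPM in SAM spleens and 117 to 224 CPM in Sham spleens). Sham 14 stood apart in the remaining fat genes: Adipoq was at 10.2 CPM there and at most 1.33 CPM in the other 5 libraries, and the lipid droplet gene Plin1 had 86 counts there and at most 7 elsewhere. The brown fat gene Ucp1 was at 0 in all 6 libraries. Summed endothelial markers (6 of 7 genes found) were 636, 530 and 438 CPM in SAM 1, 3 and 5, against 503, 477 and 448 CPM in Sham 14, 15 and 17; the part of fat and of endothelium in the Fabp4 values was not tested. Sham thymus and Sham spleen did not differ detectably in Fabp4 (log2 0.73 ± 0.74, SE; edgeR adjusted p = 0.416), but without Sham 15 of thymus the thymus was lower by -1.53 ± 0.31 (adjusted p = 0.000905). In that pair of tissues 31.6% of genes were called higher and 30.7% lower in thymus. Fabp4 had at most 11 counts in any liver or brain library.

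Fabp6, the bile acid carrier of the ileum, exceeded 3 counts in thymus only, with 6 to 16 counts per library. It stood at 0.616, 0.337 and 0.822 CPM in SAM 1, 3 and 5, against 0.557, 0.484 and 0.813 CPM in Sham 14, 15 and 17. The groups overlapped (log2 fold change -0.079 ± 0.41, SE; edgeR adjusted p = 0.989). SAM 1 and Sham 15 did not stand out, unlike in Fabp3 and Fabp4. Liver and brain had 0 counts in all 12 libraries. On the within-tissue CPM, Sham thymus (mean 0.618 CPM) was at least 10.6-fold above Sham liver, 11.1-fold above Sham brain and 10.1-fold above Sham spleen (floor of 3 counts over the group). These bounds hold for that scaling only. Under TMM over all 24 libraries the Sham thymus mean was 0.422 CPM, so no bound independent of the scaling is given.

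Fabp7, the brain form, known from radial glia, astrocytes and olfactory ensheathing glia, had the widest spread in brain. It stood at 171, 90.2 and 27.1 CPM in SAM brains 1, 2 and 3, against 33.5, 18.9 and 35.1 CPM in Sham brains 13, 15 and 16. SAM 1 and SAM 2 lay above all Sham brains and SAM 3 lay inside their range. The means were 96.2 ± 72.2 CPM for SAM brains and 29.2 ± 8.93 CPM for Sham brains (SD, n = 3 each), with a log2 fold change of 1.72 ± 0.62 (SE; edgeR adjusted p = 0.225). It was 1.68 ± 0.45 (edgeR adjusted p = 0.0431) in a single fit of all 24 libraries, where 579 genes were called for brain. That fit takes its spread from all tissues together, so its p does not measure the spread among brain libraries alone. Without SAM 3, the SAM brain inside the Sham range, the log2 fold change was 2.15 ± 0.30 (edgeR adjusted p = 0.000823), and 5896 genes were called. In the main fit 0 of 15126 genes were called. With SAM 1 and SAM 2 left out the fold change was -0.11 ± 0.32.

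Markers of olfactory bulb and newborn neurons followed the same libraries. Their sum (10 genes) was 1340, 1260 and 102 CPM in SAM brains 1, 2 and 3, against 99.1, 96.7 and 117 CPM in Sham brains 13, 15 and 16. Markers of olfactory ensheathing glia (5 genes, with 1 at 0 in every brain library) summed to 150, 104 and 56.5 CPM in SAM 1, 2 and 3, against 65.3, 65.1 and 52.3 CPM in Sham 13, 15 and 16. Astrocyte markers (7 genes) were lowest in SAM 1, at 3280 CPM, with 3870 and 4350 CPM in SAM 2 and SAM 3 and 3510 to 3660 CPM in Sham. Neural progenitor markers (5 genes) were 190 to 218 CPM in SAM and 102 to 142 CPM in Sham. The part of the brain region sampled in the Fabp7 values was not tested.

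**Figure D4:**
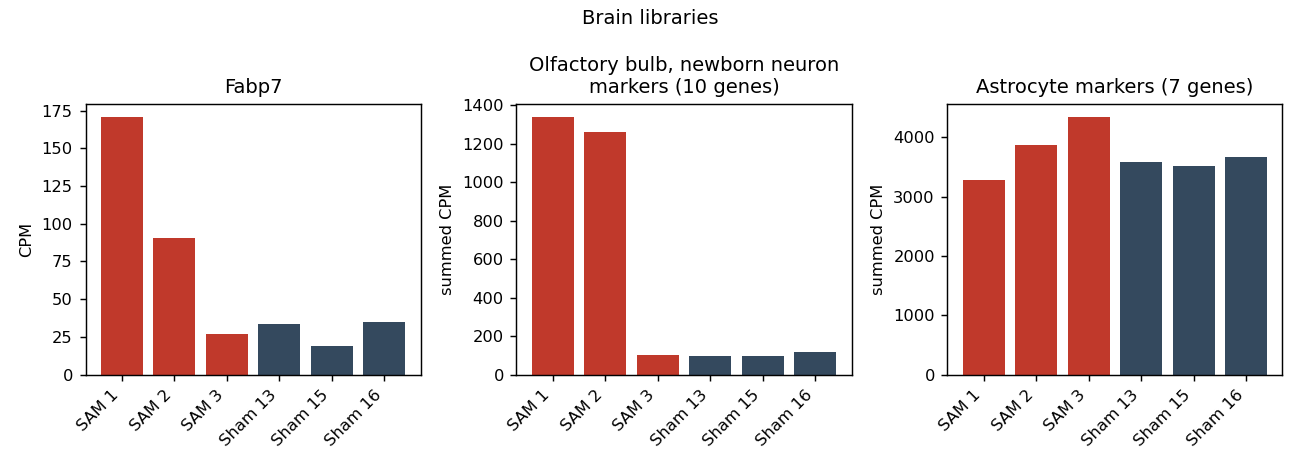
Fabp7 (CPM), the summed level of 10 olfactory bulb and newborn neuron markers (CPM) and that of 7 astrocyte markers (CPM) in each brain library, SAM left of Sham. Fabp7 and the olfactory bulb markers are high in SAM 1 and SAM 2 (171 and 90.2 CPM of Fabp7), while SAM 3 lies near the Sham libraries.

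Liver also held Fabp7, at 73.3, 40.5 and 24.0 CPM in SAM 1, 2 and 3, against 28.1, 29.7 and 48.2 CPM in Sham 13, 14 and 15. SAM 1 was highest and SAM 3 lowest, so the groups overlapped, and the log2 fold change of 0.38 ± 0.40 (SE) was -0.12 ± 0.27 without SAM 1. Between Sham liver and Sham brain the log2 difference was 1.83 ± 0.25 (SE; edgeR adjusted p = 1.4e-05) under TMM across tissues and 0.38 (adjusted p = 0.186) under library totals, so an order of these tissues is not given. In thymus and spleen Fabp7 had at most 2 counts per library, and Sham brain exceeded Sham spleen by 8.81 ± 0.54 (adjusted p = 3.87e-09).

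**Figure D5:**
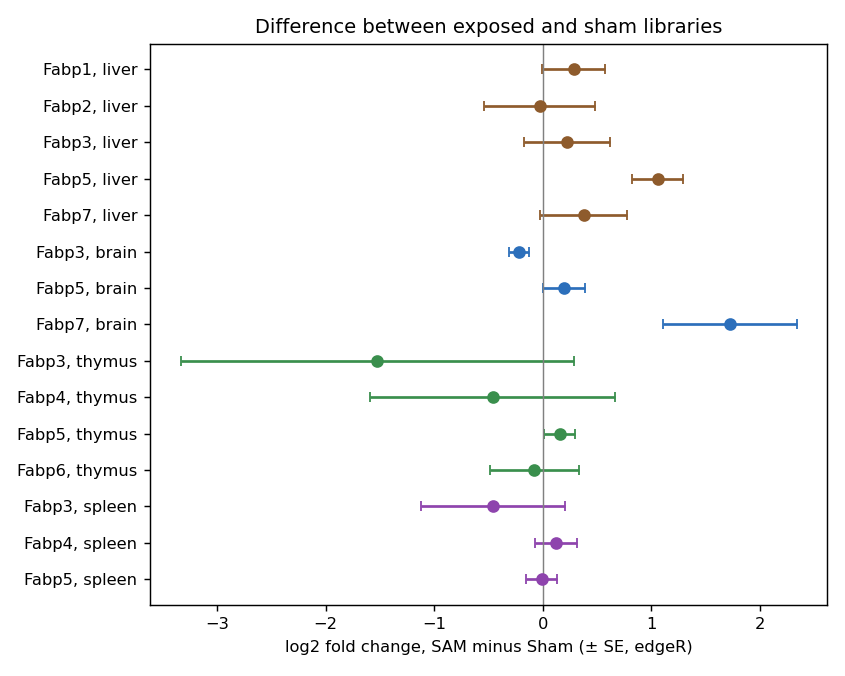
Log2 fold change, SAM minus Sham, with its SE (edgeR), for each member that passed the low-count filter in a tissue, listed from liver at the top to spleen at the bottom. Fabp5 in liver (1.06 ± 0.24) and Fabp7 in brain (1.72 ± 0.62) lie farthest above 0, and Fabp3 in thymus has the widest error (SE 1.81).

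Of the 28 member and tissue combinations, 15 passed the low-count filter, and those that did not are given above as counts. None of the 10 tested in brain, thymus and spleen passed the adjusted threshold. Whether the SAM effect differed between brain, thymus and spleen was tested with an edgeR F test, which called 0.0738% of 17623 genes. The adjusted p was 1 for Fabp3, Fabp4, Fabp5 and Fabp7 and 0.953 for Fabp6. Between thymus and spleen, Fabp5 differed by 0.16 ± 0.22 (log2, SE), Fabp4 by -0.58 ± 1.31 and Fabp3 by -1.06 ± 2.88, each with an adjusted p of 1, where 0% of 15781 genes were called.

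Other lipid-handling genes were counted from 4 lists, and 0 of their tested members were called in either direction in any tissue. The list of other intracellular lipid-binding proteins (9 genes) had 2 tested for liver, 3 for brain, 5 for thymus and 3 for spleen. It includes the retinoic acid carriers Crabp1 and Crabp2. Crabp1 was high in the same SAM brains as Fabp7, at 11.2, 11.2 and 1.38 CPM in SAM 1, 2 and 3, against 3.18, 1.39 and 2.42 CPM in Sham 13, 15 and 16. Its log2 fold change was 1.78 ± 0.71 (SE, edgeR adjusted p = 0.237). Without SAM 3, its lowest SAM brain, it was 2.25 ± 0.27 (edgeR adjusted p = 0.000401), in a fit that called 5896 genes. Crabp1 was named for a low p in these same libraries, and SAM 3 is the SAM brain that goes against its difference. The p without SAM 3 is therefore no separate support. Crabp2 was at 7.45 to 8.45 CPM in SAM brains and 2.18 to 6.90 CPM in Sham brains (1.01 ± 0.43; edgeR adjusted p = 0.247), with every SAM brain above every Sham brain, as in 11.6% of brain genes, and its fold change was -0.49 ± 0.20 in thymus. Rbp2, the intestinal retinol carrier, was at 0.801 to 1.45 CPM in SAM thymus and 1.93 to 2.48 CPM in Sham thymus (-0.93 ± 0.28; edgeR adjusted p = 0.603). Fabp12 in liver differed by 0.11 ± 0.30, and Crabp1 and Crabp2 in spleen by 0.033 ± 0.34 and 0.22 ± 0.35. Without 1 library the sign turned for Fabp12 in liver (-0.16 ± 0.30 without SAM 2) and for Crabp1 in spleen (-0.15 ± 0.40 without SAM 5 and -0.15 ± 0.36 without Sham 17). None of these passed the threshold with all libraries.

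Over all genes tested, the median log2 fold change of SAM over Sham was 0.018 for liver, 0.011 for brain, -0.0014 for thymus and 0.0028 for spleen. The list of fatty acid uptake, binding and activation (18 genes, 13 to 15 tested per tissue) had a median log2 fold change of 0.029 for liver, -0.046 for brain, -0.058 for thymus and -0.014 for spleen. Slc27a3, an acyl-CoA synthetase of the fatty acid transport protein family, had the lowest p of the list in thymus, at 20.8, 26.6 and 17.9 CPM in SAM 1, 3 and 5, against 40.3, 39.1 and 36.0 CPM in Sham 14, 15 and 17 (-0.82 ± 0.14, SE; edgeR adjusted p = 0.289). In liver the 3 lowest p belonged to Slc27a3 (0.91 ± 0.42), Slc27a4 (0.48 ± 0.26) and the acyl-CoA synthetase Acsl3 (-0.31 ± 0.19). In brain they belonged to Acsl4 (-0.44 ± 0.16), the acyl-CoA binding protein Dbi (0.57 ± 0.20) and Slc27a4 (-0.24 ± 0.086), and in thymus Slc27a3 was followed by the lipase Lipc (0.52 ± 0.38) and Slc27a2 (-1.34 ± 1.41). In spleen they were Acsl1 (0.13 ± 0.098), Gpihbp1 (-0.10 ± 0.088) and Acsl5 (0.080 ± 0.070). The adjusted p ranged over these from 0.224 to 0.967.

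Triglyceride storage and release (17 genes, 10 to 14 tested) had medians of 0.056 for liver, 0.13 for brain, -0.25 for thymus and -0.10 for spleen. The lowest p were those of Cidea (0.86 ± 0.41), Dgat1 (0.35 ± 0.22) and Mgll (-0.38 ± 0.26) in liver, and of the lipid droplet protein Plin3 (0.65 ± 0.18), Dgat1, which completes triglyceride synthesis (0.29 ± 0.087), and Pnpla3 (-0.50 ± 0.20) in brain. In thymus they were those of Plin2 (-0.16 ± 0.11), Pnpla3 (1.10 ± 0.94) and Abhd5 (-0.29 ± 0.30), and in spleen those of the monoacylglycerol lipase Mgll (0.36 ± 0.14), Dgat2 (-0.51 ± 0.22) and Lipe (-0.26 ± 0.12). The list of nuclear receptors and factors of Fabp genes (12 genes, 8 to 12 tested) had medians of 0.14 for liver, 0.31 for brain, -0.11 for thymus and -0.033 for spleen. Among peroxisome proliferator-activated receptors in liver, Ppard differed by 1.66 ± 0.83, Pparg by 0.78 ± 0.43 and Ppara by -1.09 ± 0.61, and each moved by over 1.5 times without 1 library. Ppard was at 76.0, 13.5 and 7.32 CPM in SAM 1, 2 and 3, against 16.1, 7.80 and 6.59 CPM in Sham 13, 14 and 15, and differed by 0.052 ± 0.39 without SAM 1. Ppara was at 2.29 CPM in SAM 1 and at 11.2 to 31.3 CPM in the other 5 livers (-0.62 ± 0.27 without SAM 1), and Pparg differed by 0.32 ± 0.41 without SAM 2. In brain Nr1h3 differed by 0.65 ± 0.25, Rxrb by 0.23 ± 0.097 and Rxra by -0.45 ± 0.22, in thymus Rxra by -0.26 ± 0.083, Ppargc1b by -0.14 ± 0.15 and Rxrg by -0.45 ± 0.57, and in spleen Ppara by -0.44 ± 0.31, Rxrb by -0.060 ± 0.071 and Ppard by -0.061 ± 0.081. None of these log2 fold changes (± SE) passed the edgeR threshold.

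Single libraries weighed on the named genes of the last 3 lists. With each replicate left out in turn, 4 of 36 such values turned sign, all in thymus and all without SAM 1 or Sham 15, where fat genes were high. Pnpla3, a lipase of lipid droplets, was at 47.7, 5.89 and 3.92 CPM in SAM thymus 1, 3 and 5, against 7.64, 15.8 and 3.51 CPM in Sham thymus 14, 15 and 17, and its fold change was -0.86 ± 0.58 without SAM 1. Without Sham 15, those of Slc27a2, Abhd5 and Rxrg were 1.71 ± 1.22, 0.13 ± 0.17 and 0.33 ± 0.46. In liver without SAM 1, the differences of Cidea, Dgat1, Mgll and Slc27a4 were 0.26 ± 0.21, 0.079 ± 0.12, -0.13 ± 0.14 and 0.25 ± 0.21. In brain 8 of 9 passed the threshold without SAM 3, where 5896 of all genes tested were called. With no library left out, 15126 genes were tested in brain and 0 were called. The 9 were named for the lowest p of their lists in these same libraries. In each of liver, thymus and spleen, 0 of 9 passed with any replicate left out.

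The genes whose pattern was most like that of a member were taken by Pearson correlation of log2 CPM over the 24 libraries, which share their tissue in sixes, so that tissue sets most of each value. They were Ces2e, Apof and Hsd17b6 for Fabp1 (each r = 0.999), Miox, Serpina3m and Entpd8 for Fabp2 (0.985 to 0.986), Slc27a1, Kcnk3 and Calr4 for Fabp3 (0.917 to 0.937), Gbp5, Btnl9 and Etfbkmt for Fabp4 (0.969 to 0.970), Gadd45g, Spag7 and Tpra1 for Fabp5 (0.874 to 0.897) and Sall1, Cldn12 and Elovl2 for Fabp7 (0.983 to 0.990). After the group means were removed, the likest were Gpld1, Aifm2 and Mapt for Fabp3 (0.978 to 0.984, n = 18 libraries), Esrrg, Fam57b and Kcnk3 for Fabp4 (0.991 to 0.995, n = 12), Ppa1, Spryd4 and Mfap2 for Fabp5 (0.789 to 0.822, n = 24) and Hnrnpa1, Foxj2 and Hist3h2ba for Fabp7 (0.938 to 0.960, n = 12). By Spearman (rank) correlation over the 24 libraries, only Ces2e for Fabp1 and Kcnk3 for Fabp3 stayed among the 3 likest. With the group means removed, only Ppa1 and Spryd4 for Fabp5 and Hnrnpa1 for Fabp7 did. The names thus depend on the measure. For Fabp3 and Fabp4 the thymus libraries weighed most in the Pearson values. The SD of log2 CPM for Fabp3 was 2.84 (SAM) and 3.91 (Sham) in thymus, against 0.0633 and 0.125 in brain. For Fabp4 it was 1.41 and 2.29 in thymus, against 0.394 and 0.218 in spleen. Slc27a1, a fatty acid transport protein, was at 84.1, 34.5 and 32.4 CPM in SAM thymus 1, 3 and 5, against 31.1, 128 and 36.4 CPM in Sham thymus 14, 15 and 17.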

How the data were processed

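Per the labels' protocols, RNA was isolated with RNeasy columns and sequenced from stranded TruSeq mRNA libraries. The submitters' processing notes name STAR 2.2.1 and the rat build rn6 without their roles; counting program, strand setting and annotation are not given in the sources. The deposited values are raw counts in a single table, as the authors made it. Floors of 3 counts cover counting error only; SD and SE include the spread between replicates.

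For each tissue a separate model was fitted in R 4.3.3 with edgeR 4.0.16 (filterByExpr, TMM, glmQLFit and glmQLFTest, Benjamini-Hochberg adjustment over all genes tested, two-sided, threshold 0.05). The 12 Sham libraries were fitted together to compare tissues, and all 24 to test differences of the SAM effect (for thymus against spleen, their 12). DESeq2 1.42.0 was an alternative, with other scalings, no filter and left-out libraries. Leaving out replicates for genes of the lists was added after seeing the data. The members and lists were chosen with earlier results of these data known; the tests were tried on simulated counts. Named genes are all members, the 3 with the lowest p of each list in each tissue, and the 3 most correlated with each member averaging at least 1 CPM in a tissue (after removal of group means, those with over 6 libraries); cell types are given as summed CPM of marker lists. A gene of the list of other intracellular lipid-binding proteins, and that list's medians, are not reported here. Log2 CPM used a prior count of 2. No library was a copy of another: chi-square per degree of freedom between replicates ran from 6.24 to 209. Promoters and chromosomes are from RefSeq, GRCr8.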

Additional observations from a re-analysis of the deposited data

How the results depend on the processing

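The names of the genes most like a member depended on the correlation used, as given above. The count of genes called between SAM and Sham, 0 in each tissue, was also open to the processing. In liver it was 1 with RLE (relative log expression) size factors, 1 without the low-count filter, 2 with DESeq2 and 3 in a single fit of 24 libraries, and 0 to 1 with each replicate left out. In brain it was 508 with DESeq2 and 579 in the single fit, 0 to 5896 with each replicate left out (the highest without SAM 3), and 1 with SAM 1 and SAM 2 both left out, where the lone SAM library is assumed to vary like the Sham ones. In thymus it was 3 without the filter, 102 with DESeq2 and 3 in the single fit. In spleen it was 7 with DESeq2 and 0 to 1 with each replicate left out. The 13 genes whose SAM effect differed between brain, thymus and spleen became 2 without the liver libraries and 1 to 1071 with each replicate left out; that count between thymus and spleen, 0, became 0 to 1.

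Among the members, 157 alternative values of SAM minus Sham kept their direction and side of the threshold or, in liver, where no test is given, moved by less than the replicate spread (with changes of sign for Fabp1, at -0.11, and Fabp7, at -0.12, without SAM 1, and for Fabp2, at 0.39 without SAM 2 and 0.30 without Sham 15), 12 others turned sign and 2, both Fabp7 in brain, passed it. With SAM 1 and SAM 2 of brain left out, Fabp5 was -0.20 and Fabp7 -0.11; with SAM 1 and Sham 15 of thymus left out (chosen after seeing the data), Fabp4 was 0.53, and Fabp3 no longer passed the filter. With each replicate left out, thymus log2 fold changes ranged from -4.99 to 4.02 for Fabp3, -1.77 to 1.84 for Fabp4 and -0.38 to 0.21 for Fabp6, and spleen ones from -1.17 to 0.10 for Fabp3, -0.10 to 0.30 for Fabp4 and -0.13 to 0.14 for Fabp5. The thymus-minus-spleen difference of the SAM effect ranged from -4.49 to 4.45 for Fabp3 and -1.85 to 1.70 for Fabp4. Among Sham tissues, Fabp5 under library totals was -0.066 (brain minus thymus), -0.98 (liver minus brain), -1.30 (liver minus spleen) and -1.04 (liver minus thymus). With each replicate left out, Fabp3 ranged from -3.28 to 2.78 (liver minus thymus) and -0.93 to 5.13 (thymus minus spleen), and Fabp4 from -1.53 to 1.26 (thymus minus spleen); the extremes at 2.78, -0.93 and -1.53 are those without Sham 15 of thymus. The cause was not tested.

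Thymus and spleen share animal numbers, and same-numbered libraries correlated at 0.00634 to 0.27 in their deviations from the group means. Differently numbered libraries of the same treatment correlated at -0.287 to 0.158. Whether the numbers pair the libraries is therefore undecided, and the main fits do not pair them. With the replicate number as a block, no count of calls moved by over 1.5 times; Fabp4 became 0.22 in the difference of the SAM effect and -0.53 (adjusted p = 0.609) in Sham thymus minus Sham spleen, and Fabp3 in that last comparison was 3.19 (adjusted p = 0.127), against 4.55 (adjusted p = 0.0165) without the block. At these depths values under 1 CPM rest on few counts, so differences of Fabp2 and Fabp6, and of Fabp3 in liver and spleen, are detectable only if large.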
